A study of Mus musculus with 4 samples.

Results

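Notch receptors, their nuclear partner and known target genes were followed across 16 hashtagged samples of mouse early T-cell progenitors. The members are 7 of the 31053 genes counted and were taken by symbol: the receptors Notch1, Notch2 and Notch3, the DNA-binding partner Rbpj, and the target genes Hes1, Nrarp and Dtx1. All 7 were found in both mRNA libraries. Bone marrow progenitors were grown with the OP9-Dll1 stromal line, which displays the Notch ligand Dll1, and with IL-7 and Flt3-ligand at 10 ng/ml each. The study had 4 deposited samples, an mRNA library and a hashtag library for each of 2 experiments.

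Per the series design, Runx1 gain was made in progenitors of B6.Bcl2 transgenic mice aged 8 to 10 weeks, with the retroviral vector MSCV-Runx1-mCherry against MSCV-empty-mCherry, and cells were harvested on culture days 4 and 6. Runx1 and Runx3 loss was made in progenitors of B6.Cas9;Bcl2 transgenic mice with the vectors E42-gRunx1-humanNGFR and E42-gRunx3-mTurquoise, with 3 guide pairs for each gene. Its controls, E42-gControl-humanNGFR and E42-gControl-mTurquoise, carried guides to luciferase, and harvests were on days 5 and 8. Vectors were delivered on day 2 in every arm. The labels give 4 to 5 days of culture for experiment 1 and 4 to 8 days for experiment 2. All arms share the Bcl2 transgene, the OP9-Dll1 ligand and a sort for live, Lineage-negative, CD45-positive cells with the vector reporter, and the labels call the cells Phase1 pro-T cells with high cKit. A hashtag is an antibody-borne DNA barcode that marks the culture of each cell. The hashtag tables do not state which culture a tag marks, so the 8 tags of an experiment, numbered in column order, are samples of unknown condition. Each tag's value, or the range and median, is given, with no test and no p-value, and a mean over tags served only as a filter on low genes and to pick a gene per role. With 1 mRNA library per experiment there is no replicate check. The promoters that drive the vectors and the Bcl2 transgene were not analysed here.

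Notch receptors are cut on ligand binding, and the released intracellular part enters the nucleus, where it joins Rbpj and Maml coactivators at target genes. Hes1 is a bHLH repressor. Nrarp is a small ankyrin repeat protein that limits Notch activity, and Dtx1 is a Deltex E3 ligase that acts on Notch signalling. Notch1 is the receptor that T-lineage commitment depends on, and Dll1 on the OP9 cells serves as its ligand in culture.

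The 7 genes were placed on GRCm38.p6 with RefSeq, which matches the GRCm38 build in the submitters' processing notes. Notch1 (ENSMUSG00000026923) spans chromosome 2 from 26457902 to 26503822. Notch2 (ENSMUSG00000027878) spans chromosome 3 from 98013538 to 98150367. Notch3 (ENSMUSG00000038146) spans chromosome 17 from 32120820 to 32166896. Rbpj (ENSMUSG00000039191) spans chromosome 5 from 53555779 to 53657445. Hes1 (ENSMUSG00000022528) spans chromosome 16 from 30065357 to 30067796. Nrarp (ENSMUSG00000078202) spans chromosome 2 from 25180758 to 25183339. Dtx1 (ENSMUSG00000029603) spans chromosome 5 from 120680203 to 120711867. Rbpj has the related gene Rbpjl, a separate row of the matrix.

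The promoters of Nrarp and Dtx1, which were low in the same tags, and of Rbpj are shown because Rbpj binds DNA at targets of Notch and Runx factors are the ones the study perturbed. Each line is the 250 bases before a RefSeq start (for Rbpj and Dtx1 a start inside the gene's span), 5′ to 3′ on the gene's strand, and capitals mark the Rbpj-type letters TGGGAA on either strand. The Rbpj line is chr5:53590096-53590345 (plus strand), the Nrarp line chr2:25180508-25180757 (plus strand) and the Dtx1 line chr5:120711670-120711919 (minus strand), all on GRCm38.p6.
Rbpj: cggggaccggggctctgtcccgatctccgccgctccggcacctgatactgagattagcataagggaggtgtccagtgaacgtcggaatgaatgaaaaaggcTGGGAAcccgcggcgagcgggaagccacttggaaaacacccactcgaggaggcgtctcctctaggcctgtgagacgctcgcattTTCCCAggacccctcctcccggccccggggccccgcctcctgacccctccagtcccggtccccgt
Nrarp: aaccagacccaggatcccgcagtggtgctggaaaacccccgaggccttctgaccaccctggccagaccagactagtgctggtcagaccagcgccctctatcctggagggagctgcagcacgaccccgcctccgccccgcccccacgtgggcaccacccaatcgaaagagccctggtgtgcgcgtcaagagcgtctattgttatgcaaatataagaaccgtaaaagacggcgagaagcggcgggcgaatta
Dtx1: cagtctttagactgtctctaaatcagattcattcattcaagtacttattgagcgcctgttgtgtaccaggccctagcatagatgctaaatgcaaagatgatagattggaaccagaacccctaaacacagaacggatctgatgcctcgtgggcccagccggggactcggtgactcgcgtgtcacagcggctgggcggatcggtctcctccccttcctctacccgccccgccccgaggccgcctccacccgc

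In windows of 300 bases (250 before and 50 after the start), 6 members had 7 windows, and Hes1 had no entry. The Rbpj-type letters TGGGAA, searched on both strands, were found only in the 2 overlapping Rbpj windows. In the printed window they began 149 bases before the start on the gene's strand and 65 bases before it on the opposite strand. The Runx-type letters TGTGGT, also searched on both strands, were in none of the 7 windows. Of all 32851 windows of this length, 25.6% held TGGGAA and 16.8% held TGTGGT. These are matches of letters in a short window, not measured binding.

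Experiment 1 gave 8797 cells with 1 tag out of 9332 cells kept, and experiment 2 gave 8335 out of 10214. The tags held 691 to 1291 cells and 14502385 to 38067298 UMIs (unique molecular identifiers, 1 per captured RNA molecule) in experiment 1, and 855 to 1312 cells and 22272716 to 42684236 UMIs in experiment 2. The 2 experiments shared 39 cell barcodes. Summed markers of T-lineage cells ran from 449.3 to 1159.7 UMIs per 1000000 (CPM) over the tags of experiment 1 and between 265.8 and 1967 CPM over those of experiment 2, and no marker of the progenitor or T-lineage lists was at 0 in any tag. Levels below are UMIs of a gene summed over the cells of a tag per 1000000 UMIs, with exact Poisson intervals of 95% in brackets, which cover counting error only. In a pooled sum, fewer cells of a type and less RNA per cell cannot be told apart.

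Hes1 and Nrarp differed between tags more than the other members that met the minimum for a call, and for Hes1 2 tags of each experiment stood well above the other 6. In experiment 1, Hes1 was at 54.2, 48.1, 111.7, 107.7, 61.2, 58.3, 48.3 and 46.7 CPM in tags 1 to 8. Tags 3 and 4 were high, and the interval of tag 4 (104.1 to 111.4 CPM) did not reach that of tag 5 (57.9 to 64.7 CPM), the next in order. Experiment 2 had Hes1 at 53.3, 114.2, 55.7, 136.0, 51.7, 40.8, 74.0 and 41.8 CPM. Tags 2 and 4 were high, tag 7 lay between them and the rest, and tags 6, 8 and 5 were lowest. Those 3 tags had the highest sums of 11 granulocyte or monocyte markers in experiment 2 (12412, 5148 and 8053 CPM, against 219.9 to 3239 CPM in the others). The Hes1 ratio of experiment 2 without clusters named as another cell type was 3.62. In experiment 1 that sum ran from 280.0 CPM (tag 7) to 1583 CPM (tag 2). The highest tag held 2.39 times the Hes1 of the lowest in experiment 1 (2.20 to 2.60) and 3.33 times in experiment 2 (3.11 to 3.57). Over 4 equal groups of cells by depth, Hes1 went from 88.8 CPM in the shallowest to 57.1 CPM in the deepest in experiment 1. In experiment 2 it went from 93.9 to 54.7 CPM. The tags of experiment 2 ran from 41.4 to 254.0 CPM in the shallowest group and from 35.0 to 85.0 CPM in the deepest. In the deepest, tag 2 (85.0 CPM) was above tag 4 (81.5 CPM).

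Nrarp was lowest in the same tags that were highest for Hes1. In experiment 1 it was at 28.5, 26.6, 18.5, 18.3, 24.4, 27.2, 46.1 and 39.4 CPM in tags 1 to 8. Tags 3 and 4 were low and did not differ beyond their intervals, and tags 7 and 8 were high. Experiment 2 had Nrarp at 19.4, 12.4, 18.7, 9.68, 19.7, 30.4, 15.3 and 23.8 CPM. Tags 4 and 2 were lowest and tags 6 and 8 highest, so the order of the 8 tags by Nrarp was the reverse of their order by Hes1, although tags 1, 3 and 5 did not differ beyond their intervals in either gene. The highest tag held 2.52 times the Nrarp of the lowest in experiment 1 (2.28 to 2.80), and 3.14 times in experiment 2 (2.72 to 3.63).

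Dtx1 followed Nrarp more than Hes1 at the low end. In experiment 1 Dtx1 was at 41.6, 39.0, 30.2, 28.2, 45.8, 41.4, 56.4 and 47.6 CPM in tags 1 to 8, lowest in tags 4 and 3 and highest in tag 7. Its levels in experiment 2 were 20.5, 16.4, 31.1, 18.1, 34.0, 25.03, 26.1 and 26.8 CPM, lowest in tags 2 and 4. Its high end differed from that of Nrarp in experiment 2, where tags 5 and 3 were highest for Dtx1. The highest tag held 2.003 times the lowest in experiment 1 (1.84 to 2.19), and 2.07 times in experiment 2 (1.85 to 2.32). These ratios sit at the line of 2. Without tag 7 the ratio in experiment 1 was 1.69, without tag 4 it was 1.86, and in experiment 2 it was 1.88 without tag 2 and 1.90 without tag 5.

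**Figure D1:**
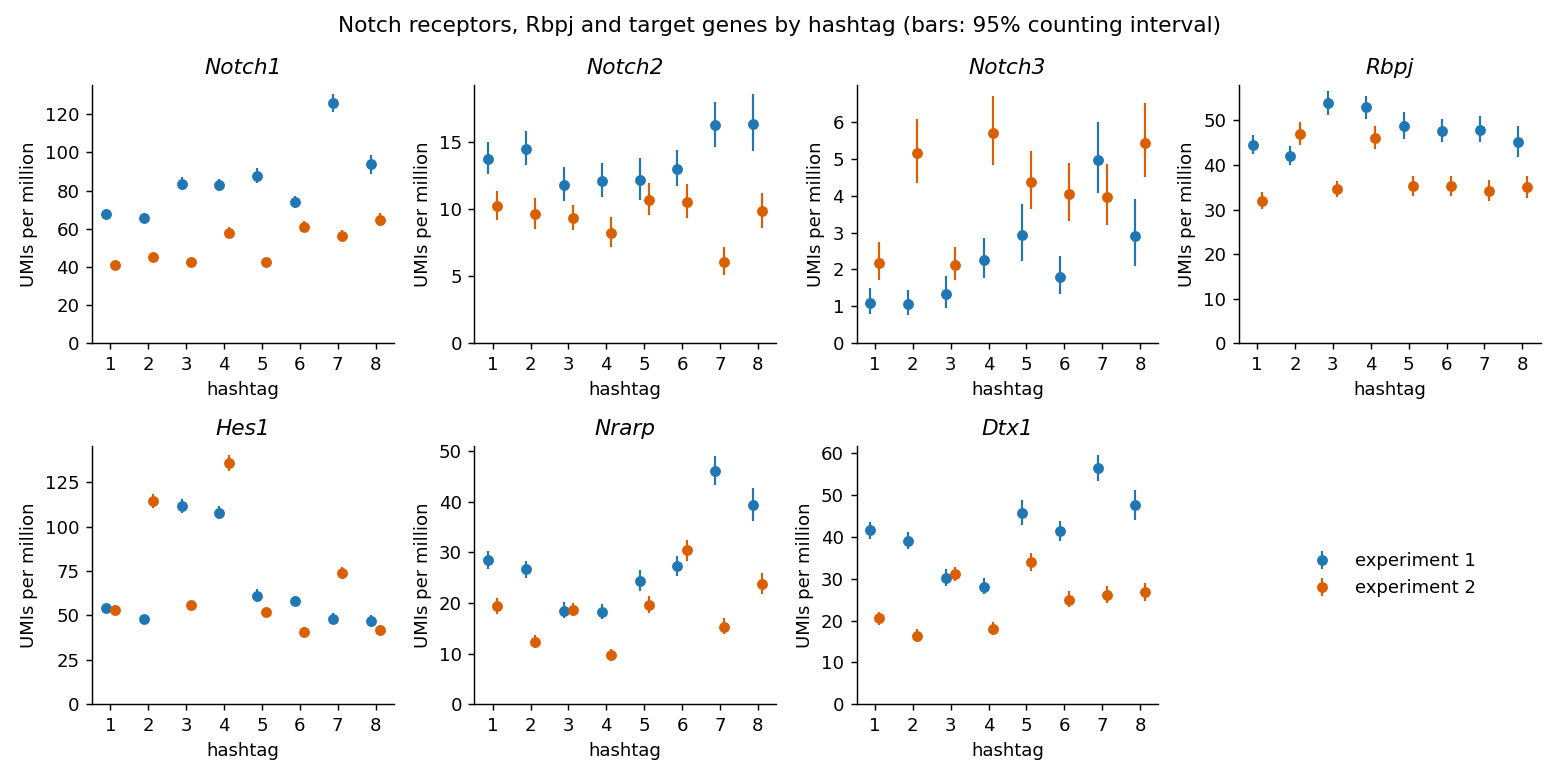
Level of each of the 7 genes (CPM, linear axis from 0) in hashtags 1 to 8 of experiment 1 (blue) and experiment 2 (orange), with bars for the 95% counting interval. Hes1 stands high in tags 3 and 4 of experiment 1 and tags 2 and 4 of experiment 2, where Nrarp and Dtx1 are low, and Notch1 is highest in tag 7 of experiment 1 at 126.0 CPM.

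Because both counts come from the same cells, Hes1 UMIs per Nrarp UMI do not depend on the scaling of the libraries. In experiment 1 this ratio was 1.90, 1.81, 6.04, 5.90, 2.51, 2.14, 1.05 and 1.18 in tags 1 to 8. For experiment 2 the ratios were 2.75, 9.22, 2.98, 14.0, 2.63, 1.34, 4.82 and 1.76. The interval of tag 4 of experiment 1 (5.39 to 6.45) lay far above that of tag 5 (2.26 to 2.79), and tag 2 of experiment 2 (8.26 to 10.3) lay above tag 7 (4.30 to 5.42). The highest tag exceeded the lowest 5.78 times in experiment 1 and 10.5 times in experiment 2, and 6.86 times in experiment 2 without tag 4. This ratio was not among the planned results, and it was taken for 2 genes that run opposite over the tags. Such a ratio spreads wider than either gene alone, and the share of gene pairs with a like spread was not counted. UMI counts of 2 genes are not compared as levels here, since only the change of their ratio between tags is used.

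**Figure D2:**
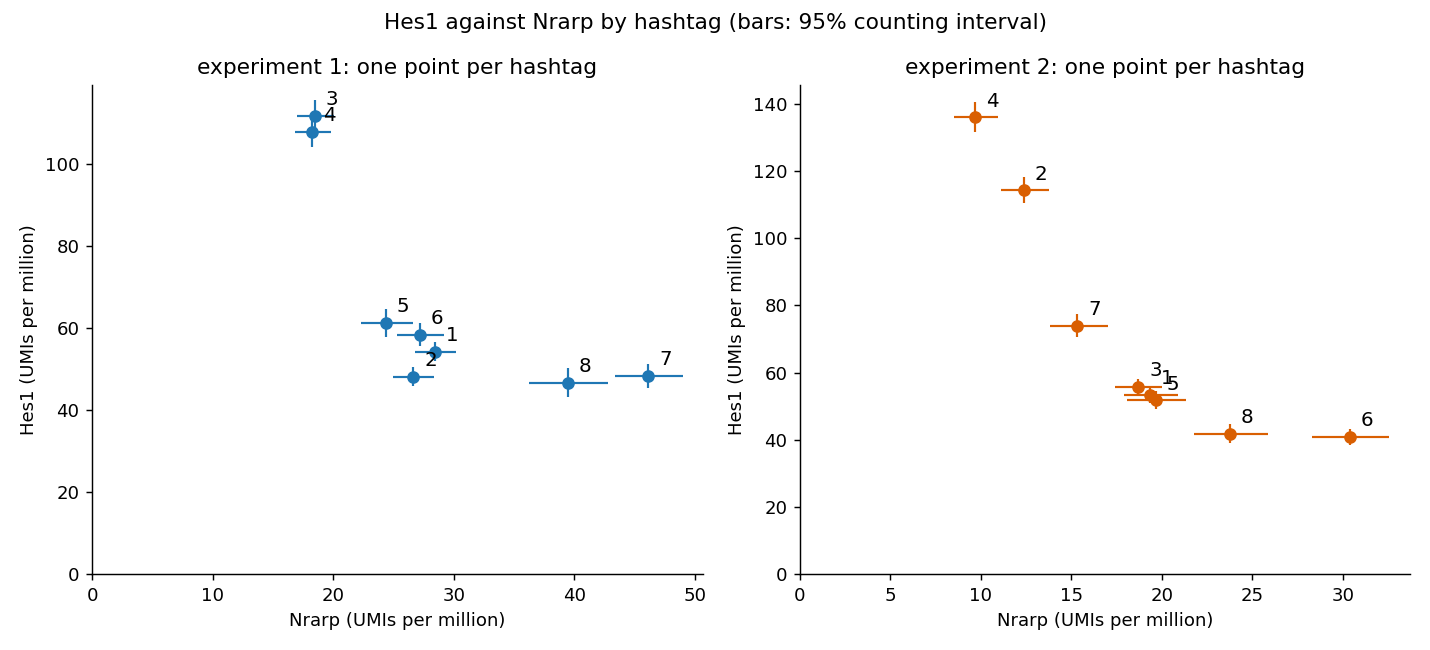
Hes1 against Nrarp (both CPM, linear axes from 0), 1 numbered point per hashtag, with bars for the 95% counting interval, experiment 1 on the left and experiment 2 on the right. Tags 3 and 4 (left) and tags 2 and 4 (right) lie at the upper left, with 107.7 to 111.7 and 114.2 to 136.0 CPM of Hes1.

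Runx1, 1 of the 2 genes that the study perturbed, was read in the same tags. Runx1 was at 76.9, 79.4, 38.2, 39.3, 96.5, 85.8, 240.8 and 210.0 CPM in tags 1 to 8 of experiment 1. Its levels in experiment 2 were 57.5, 33.7, 52.9, 39.5, 58.8, 102.1, 86.7 and 120.9 CPM. The tags with the lowest Runx1, which were 3 and 4 in experiment 1 and 2 and 4 in experiment 2, were those with the most Hes1 per Nrarp. The tags with the most Runx1 (7 and 8, and 8 and 6) were the ones with the least Hes1 per Nrarp. Between these ends the order did not hold. Tag 7 of experiment 2 was next after tags 8 and 6 for Runx1 (86.7 CPM). It was also next after tags 4 and 2 for Hes1 per Nrarp (4.82). Vector-borne and endogenous Runx1 cannot be told apart in these counts, guides can leave a transcript in place, and no condition was read from these levels. Runx1 was set beside the members after its values were seen.

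Notch1 did not follow Hes1 over the tags. In experiment 1 it was at 67.8, 65.9, 83.7, 82.8, 87.9, 73.9, 126.0 and 93.8 CPM in tags 1 to 8, with tag 7 apart from the rest. Notch1 in experiment 2 was at 41.0, 45.1, 42.9, 58.0, 42.4, 61.1, 56.4 and 64.7 CPM, with tags 8, 6, 4 and 7 above the other 4. The ratio of the highest to the lowest tag was 1.91 (1.81 to 2.02) and 1.58 (1.47 to 1.70), and 1.42 in experiment 1 without tag 7. Depth moved with these levels. Tag 7 of experiment 1 had the lowest median depth (18058 UMIs per cell), and over 4 equal groups of cells by depth Notch1 went from 107.3 CPM in the shallowest to 70.3 CPM in the deepest in experiment 1. The same groups of experiment 2 were at 63.8 and 44.1 CPM. In the shallowest group of experiment 1, Notch1 was still at 173.2 CPM in the highest tag, against 79.4 CPM in the lowest.

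Notch2 and Rbpj were the most even members over the tags of experiment 1. Notch2 ran from 11.8 CPM (tag 3) to 16.3 CPM (tag 8) with a median of 13.4, a ratio of 1.38 (1.17 to 1.63), and no pair of neighbours in that order had separate intervals. In experiment 2 Notch2 ran from 6.08 CPM (tag 7) to 10.7 CPM (tag 5) with a median of 9.72, a ratio of 1.76, which was 1.30 without tag 7. Tag 7 was the one tag below the others. Rbpj was at 44.5, 42.03, 53.9, 52.8, 48.7, 47.6, 47.9 and 45.2 CPM in tags 1 to 8 of experiment 1, and at 31.9, 47.0, 34.5, 46.1, 35.2, 35.3, 34.2 and 34.9 CPM in experiment 2. Its highest tags were the ones highest for Hes1, and the ratio was smaller, at 1.28 (1.19 to 1.38) and 1.48 (1.36 to 1.6). In experiment 2 the stromal marker sum was 788.8 CPM in tag 2 and 407.3 CPM in tag 4, against 157.5 to 747.3 CPM in the other tags, and the Rbpj ratio was 1.45 without stromal-like cells.

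Notch3 was rare. It ran from 1.06 CPM (tag 2, 39 UMIs) to 4.96 CPM (tag 7) in experiment 1. The tags of experiment 2 lay between 2.13 CPM (tag 3) and 5.70 CPM (tag 4). Its mean was below the 5 CPM that a gene needed for a call, so its ratios of 4.66 and 2.67 are given without one. They were 2.75 in experiment 1 without tag 7 and 5.24 in experiment 2 without other cell types.

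A gene was called where its highest tag held at least 2 times its lowest. The minimum for this was a mean over tags of 5 CPM and a lowest tag with 10 UMIs. Hes1, Nrarp and Dtx1 passed in both experiments, that is 3 of the 6 members that met the minimum. Among all genes that met it, 10.7% passed in experiment 1 (937 of 8767) and 17.2% in experiment 2 (1511 of 8766), and the median ratio was 1.31 and 1.37. Notch1, Notch2 and Rbpj did not pass in either experiment.

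Notch1, Notch2, Dtx1, Nrarp and Rbpj were lower in experiment 2, where the median ratio to experiment 1 over all 9061 genes compared was 0.900. Over all tags, Notch1 in experiment 2 was 0.61 times its level in experiment 1 (50.1 against 81.9 CPM), and Notch2 was 0.69 times (9.41 against 13.6 CPM). For both genes the 8 tags of experiment 2 lay below the 8 tags of experiment 1, without overlap. The same held for several other genes of the Notch pathway. The share of all genes for which it holds was not counted, so it is not read as a trait of Notch1 and Notch2. Dtx1 was 0.63 times, Nrarp 0.68 times and Rbpj 0.78 times, with tags that overlapped, while Hes1 was 1.02 times. None of the 6 members at the minimum was 2-fold apart, where 2.9% of 9061 genes were at least 2-fold higher and 0.342% at least 2-fold lower in experiment 2. Notch3, below the minimum, was 1.90 times. The experiments differ in culture days and in library, and these cannot be told apart.

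The other 45 genes of the pathway were read in the same way. The list was written by role with earlier results of these data known. In experiment 1, 29 of the 45 met the minimum and 5 were called, and in experiment 2, 27 met it and 3 were called. That is 17.2% and 11.1% of those at the minimum, beside the 10.7% and 17.2% over all genes, and the median ratio was 1.45 and 1.43, beside 1.31 and 1.37. The 5 ligands Dll1, Dll3, Dll4, Jag1 and Jag2 were all below the minimum in both experiments, with Jag2 the highest of them in experiment 1 and Jag1 in experiment 2. Notch4 was below it too.

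Of 15 genes that modify or cut the receptor, 13 met the minimum in each experiment. The fringe genes Lfng and Mfng, whose enzymes add sugars to Notch and change its choice of ligand, passed in experiment 1 and not in experiment 2. Mfng ran from 24.3 CPM (tag 4) to 57.0 CPM (tag 7) in experiment 1, or 2.34 times, and its highest tag in experiment 2 held 1.98 times its lowest. The Lfng ratios were 2.14 and 1.71. Psenen, a subunit of the gamma-secretase that releases the intracellular part, had the highest mean of this role, with a median over tags of 111.6 and 127.7 CPM and a ratio of 1.23 and 1.15. Of the nuclear cofactors, 6 of 7 met the minimum in experiment 1 and 5 in experiment 2, and none was called. Snw1 led them with a median over tags of 142.2 and 135.4 CPM and ratios of 1.09 and 1.12. Of 8 genes of turnover and trafficking, 6 and 5 met the minimum and none was called, with the E3 ligase Itch highest (median over tags of 35.3 and 30.9 CPM, ratios of 1.28 and 1.43).

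Of 9 other genes known to respond to Notch in T progenitors, 4 met the minimum and 3 were called in both experiments. Il2ra, the IL-2 receptor alpha chain that marks later progenitor stages, ran from 161.6 CPM (tag 2) to 495.2 CPM (tag 7) in experiment 1. In experiment 2 its range was 63.3 CPM (tag 1) to 341.4 CPM (tag 7). Tcf7, a T-lineage transcription factor, ran from 95.3 CPM (tag 8) to 272.9 CPM (tag 4) and from 28.2 CPM (tag 6) to 206.2 CPM (tag 4). Gata3, another, ran from 44.6 CPM (tag 2) to 141.8 CPM (tag 4) and from 24.8 CPM (tag 6) to 101.8 CPM (tag 4). Tcf7 and Gata3 were thus highest in a tag with high Hes1, whereas Il2ra was highest in another. Hes5, Hey1, Hey2, Heyl and Ptcra were below the minimum, and Myc had ratios of 1.55 and 1.48.

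**Figure D3:**
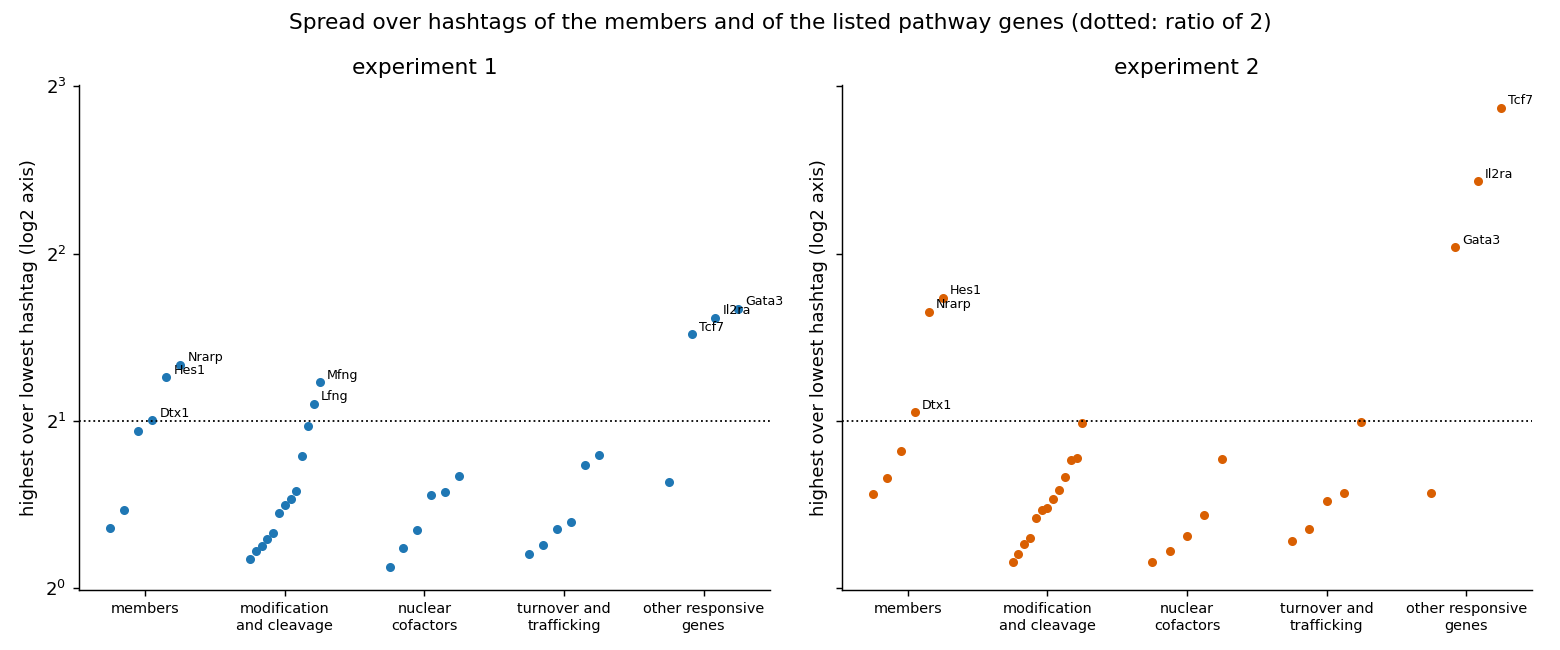
Ratio of the highest to the lowest hashtag (log2 axis) of each member and each listed pathway gene that met the minimum, by role, for experiment 1 (left) and experiment 2 (right), with a dotted line at 2 and names above it. Tcf7, Il2ra and Gata3 lie above the members in both, up to 7.32 for Tcf7 in experiment 2, and the cofactor and turnover groups lie below 2.

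The Hes1 pattern was seen at the level of clusters. Cells were clustered without the 7 members, so their levels were not used to form the clusters, and clusters took a name only from fixed markers. In experiment 1, clusters 4 and 5 stood apart with Hes1 at 130.7 and 136.2 CPM and Nrarp at 13.9 and 17.2 CPM, the latter lower than in the next T-lineage-like or progenitor-like cluster (26.8 CPM). Tags 3 and 4 supplied 51.0% and 48.5% of the 851 cells of cluster 4, and 47.8% and 52.1% of the 791 cells of cluster 5. Both clusters were unnamed, with Pgam2 and Gsn as leading genes. They held nearly all their cells from the tags that were high for Hes1.

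In experiment 2, cluster 7, which was T-lineage-like by Bcl11b, Cd3g, Cd3d, Gata3 and Lck, had Hes1 at 265.7 CPM and Nrarp at 7.65 CPM, or 34.7 Hes1 UMIs per Nrarp UMI. Tag 4 supplied 83.0% of its 569 cells and tag 2 supplied 16.5%. Cluster 4, unnamed and led by Pgam2 and Gsn, had Hes1 at 147.2 CPM and Nrarp at 10.6 CPM, and tag 2 supplied 73.4% and tag 4 25.4% of its 806 cells. At the other end, cluster 6, which was progenitor-like, had Nrarp at 44.9 CPM and Hes1 at 44.3 CPM, with 62.1% of its cells from tag 6 and 36.0% from tag 8. Over clusters, Hes1 per Nrarp ran from 0.865 (cluster 9) to 9.43 (cluster 4) in experiment 1, and up from 0.987 in cluster 6 of experiment 2. Clusters 8 and 9 of experiment 1, with Nrarp at 44.8 and 48.5 CPM and Hes1 at 52.2 and 41.9 CPM, drew 65.3% and 62.9% of their cells from tag 7. In cluster 14 of experiment 2, which was unnamed and led by Gzmc, Cd8b1 and Ifng, Hes1 and Nrarp were both at 4.91 CPM.

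Clusters that held cells of every tag differed in how far apart the tags lay for Hes1. In T-lineage-like cluster 1 of experiment 1, with at least 60 cells from each tag, Hes1 ran from 52.9 CPM (tag 8) to 77.4 CPM (tag 3), a ratio of 1.46, and Nrarp from 25.8 CPM (tag 5) to 46.4 CPM (tag 8). In progenitor-like cluster 2, Hes1 ran from 54.4 CPM (tag 7) to 71.8 CPM (tag 3), a ratio of 1.32, and Nrarp from 21.5 CPM (tag 3) to 47.7 CPM (tag 7), a ratio of 2.22. Tag 3 was highest for Hes1 in both clusters, at a smaller ratio than over all its cells and with a small lead on 60 and 63 cells. The next tags were tag 1 at 73.7 CPM in cluster 1 and tag 5 at 68.7 CPM in cluster 2. Tag 4 was at 69.3 and 65.2 CPM, below tags 1, 5 and 6 in cluster 1 and below tags 5 and 8 in cluster 2. In progenitor-like cluster 3 of experiment 2, Hes1 ran from 62.0 CPM (tag 6) to 108.3 CPM (tag 4), with tag 2 next at 88.1 CPM, a ratio of 1.75. In clusters 3 and 7 of experiment 1, both unnamed and led by histone or mitotic genes, Hes1 ran from 30.2 to 78.3 CPM and from 37.2 to 92.2 CPM, or 2.59 and 2.48 times, lowest in tag 8 and highest in tag 4 with tag 3 next. Progenitor-like cluster 6 of experiment 1 differed, with tag 3 lowest for Hes1 (32.6 CPM) and tag 5 highest (64.5 CPM), on 29 cells in the smallest tag. Over the 5 clusters of experiment 1 and the 3 of experiment 2 with at least 20 cells of every tag, the Hes1 ratio ran from 1.32 to 2.84 and the Nrarp ratio from 1.19 to 4.95 (the highest of both in dendritic-like cluster 8 of experiment 2), with 25 to 60 cells in the smallest tag. Clusters that come mostly from 1 or 2 tags cannot be told apart from those tags.

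**Figure D4:**
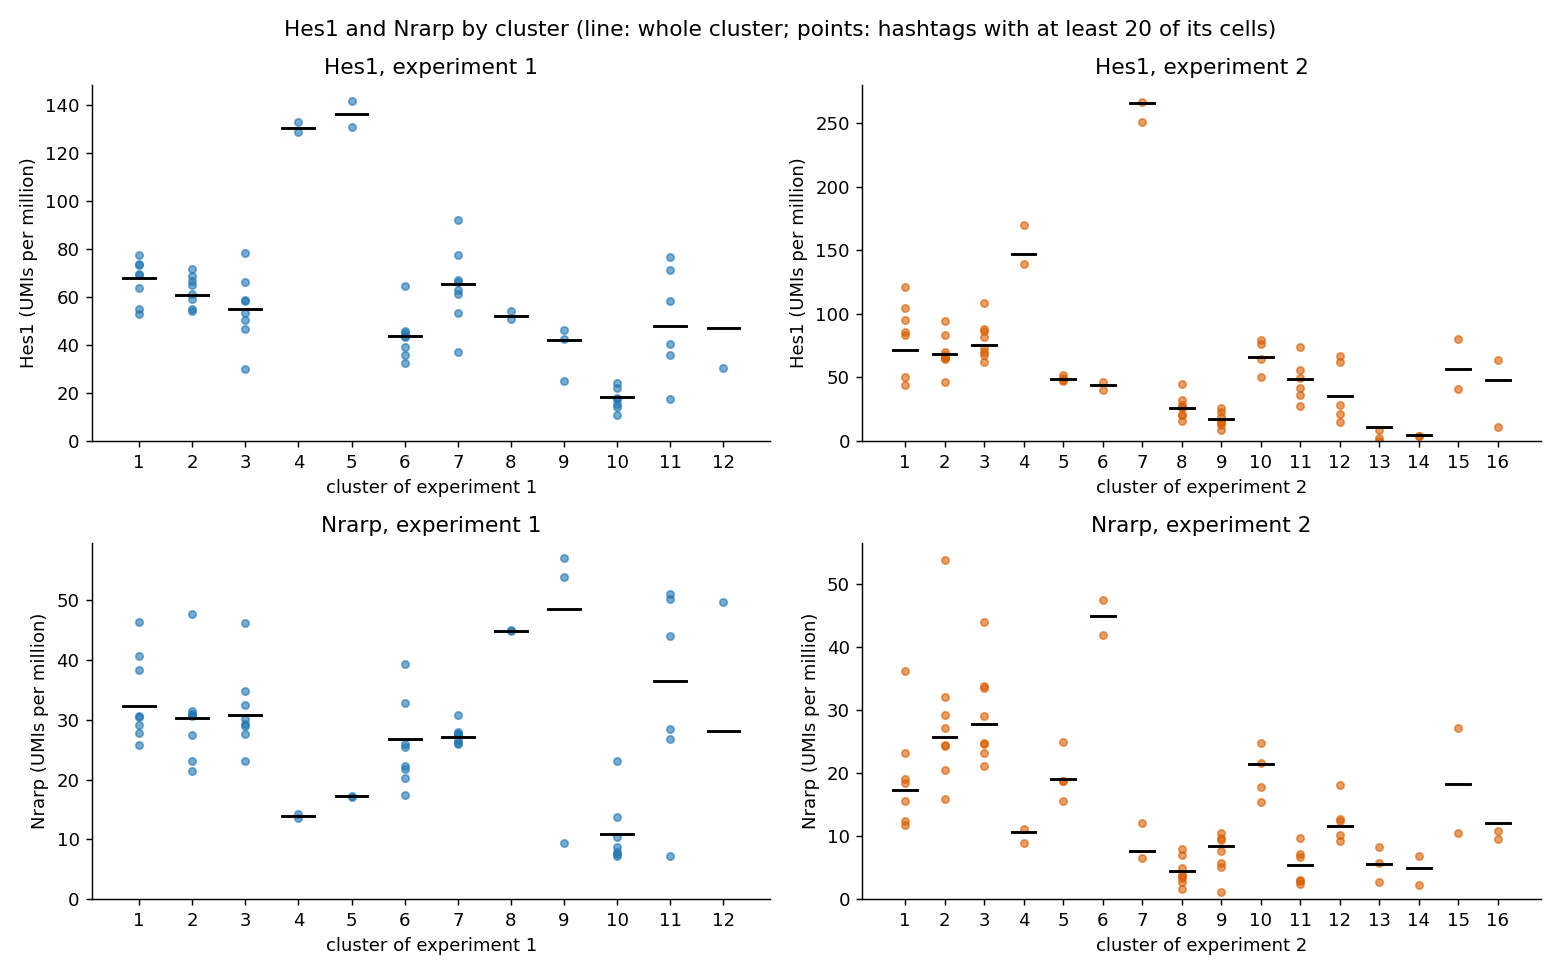
Hes1 (top) and Nrarp (bottom) in CPM by cluster, experiment 1 on the left and experiment 2 on the right; black lines give the whole cluster and points the hashtags with at least 20 of its cells. Clusters 4 and 5 of experiment 1 and clusters 4 and 7 of experiment 2 lie highest for Hes1, from 130.7 to 265.7 CPM, and low for Nrarp.

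Dtx1 and Notch1 did not split the clusters in the same way as Hes1. Dtx1 was at 28.6 and 26.6 CPM in clusters 4 and 5 of experiment 1, against 47.3 CPM in T-lineage-like cluster 1. Notch1 in clusters 4 and 5 was at 102.5 and 79.7 CPM, within the range of clusters 1 to 7 (65.7 to 104.0 CPM). In experiment 2, cluster 7 had the second-highest Notch1 of the 18 clusters (103.2 CPM), behind cluster 17 (129.9 CPM), whose 55 cells had a median of 2356 UMIs.

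Clusters of other cell types held the members in their own proportions. In granulocyte or monocyte-like cells, Dtx1 was at 6.87 CPM in experiment 1 and 3.39 CPM in experiment 2, against 42.8 and 29.9 CPM in clusters not named as another type. Hes1 was at 18.2 and 16.4 CPM there, against 72.5 and 82.4 CPM, and Notch1 at 30.2 and 21.5 CPM, against 86.6 and 58.1 CPM. At a clustering resolution of 1, only 84 cells of experiment 1 took this name, against 448 in the main clustering. In these 84 cells the values were 1.58 CPM for Dtx1, 7.26 CPM for Hes1 and 17.0 CPM for Notch1. Notch2 and Rbpj were closer between the classes, with Notch2 at 14.1 against 13.4 CPM and Rbpj at 39.8 against 48.1 CPM in experiment 1. In mast or basophil-like cells Dtx1 was at 4.64 and 3.52 CPM and Notch1 was at 16.8 and 12.7 CPM, while Hes1 was at 47.1 and 57.0 CPM. Innate lymphoid-like cells of experiment 2 had Dtx1 at 40.6 CPM and Notch1 at 13.3 CPM, and dendritic-like cells had Nrarp at 4.26 CPM. The tag ratios of Hes1, Nrarp and Dtx1 without the clusters named as another type were at least 2 in both experiments. Wherever other types are left out, only clusters with such a name are dropped. Unnamed clusters such as cluster 14 of experiment 2 stayed in.

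Notch3 was concentrated in stromal-like cells, which remained in spite of the CD45 sort. They numbered 16 cells in experiment 1 (Notch3 78.0 CPM, 59.6 to 100.5) and 207 cells in experiment 2 (41.7 CPM, 38.0 to 45.7). Elsewhere Notch3 was at 1.91 and 2.31 CPM over the pooled clusters not named as another type. These clusters were uneven. In experiment 1 cluster 8 was at 4.59 CPM (3.28 to 6.25), against 1.13 CPM (0.775 to 1.58) in progenitor-like cluster 2. In experiment 2 T-lineage-like clusters 7 and 1 were at 8.42 CPM (6.64 to 10.5) and 4.86 CPM (4.09 to 5.75), against 0.288 CPM (0.106 to 0.628) in cluster 4. Stromal-like cells made up 0.182% and 2.48% of the cells and held 13.2% and 50.1% of the Notch3 UMIs. Rbpj was also high in them, at 100.2 and 100.4 CPM. The sum of 9 stromal markers ran from 1.81 to 78.6 CPM over the tags of experiment 1, and up to 788.8 CPM in experiment 2, with Dcn and Lum at 0 in at least 1 tag of each. Without the stromal-like cells, a step added after seeing the data, the median Notch3 of the tags in experiment 2 went from 4.21 to 1.86 CPM.

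**Figure D5:**
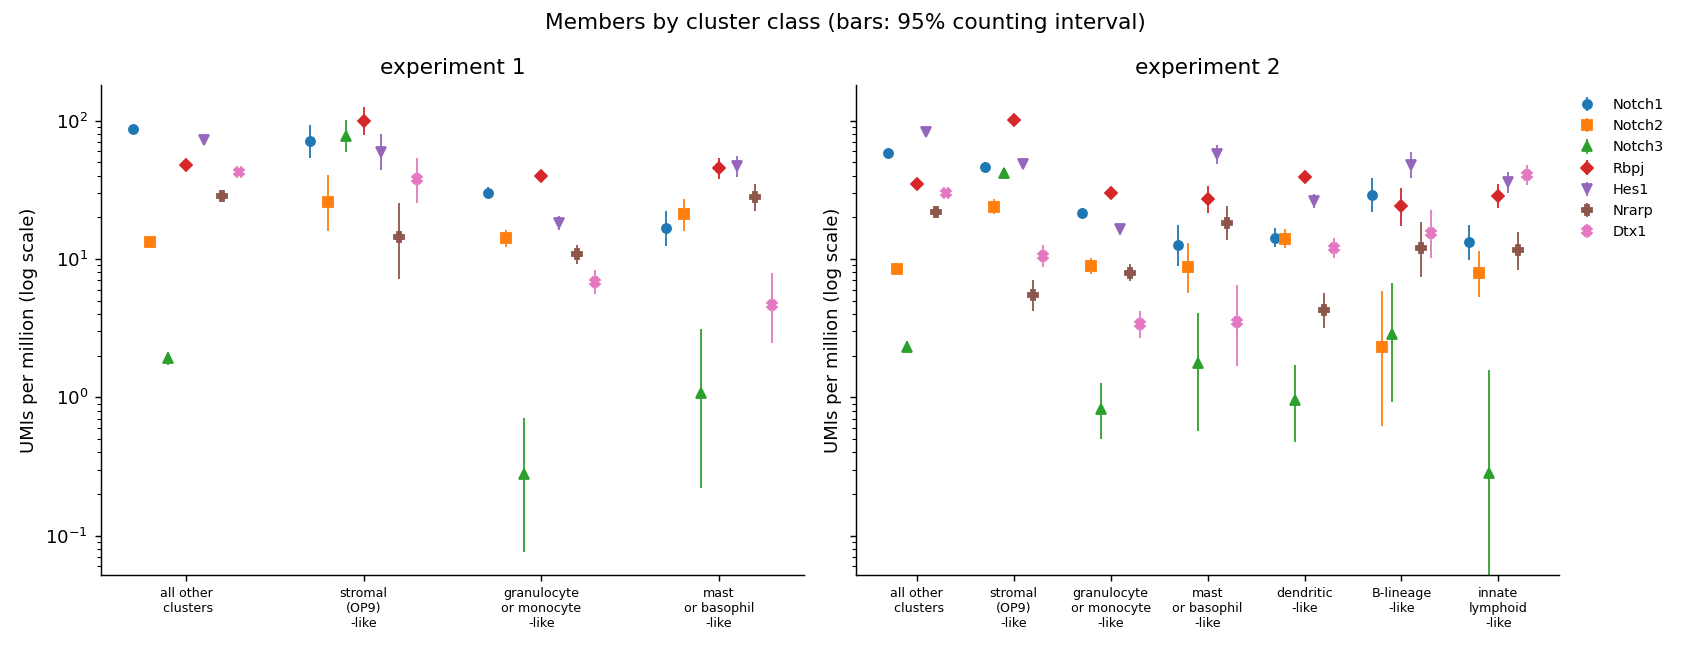
Level of the 7 genes (CPM, log axis) by cluster class, experiment 1 on the left and experiment 2 on the right, with bars for the 95% counting interval and 1 symbol per gene. Notch3 is at 78.0 and 41.7 CPM in stromal-like cells, and Dtx1 is at 6.87 and 3.39 CPM in granulocyte or monocyte-like cells.

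At a fixed depth of 10000 UMIs per cell, Notch1 was detected in 50.4% of 8224 cells in experiment 1 and in 35.3% of 7746 cells in experiment 2 (75.7% and 62.0% without thinning). Hes1 was detected in 41.9% and 41.0%, Rbpj in 36.9% and 29.1%, Dtx1 in 29.1% and 19.7%, Nrarp in 21.8% and 15.4%, Notch2 in 12.4% and 8.86% and Notch3 in 2.12% and 2.90%. The thinning left out 573 and 589 shallower cells. Over tags, Hes1 ran from 31.9% (tag 7) to 57.9% (tag 3) in experiment 1 and from 28.7% (tag 8) to 58.0% (tag 4) in experiment 2. Nrarp ran from 15.1% (tag 3) to 30.3% (tag 7) and from 8.66% (tag 4) to 23.8% (tag 6). The highest tags were those of the summed levels, and the lowest tag was another one for Hes1 in both experiments and for Nrarp in experiment 1. In granulocyte or monocyte-like cells, whose median depth was 31279 and 36331 UMIs against 25438 and 27388 over all tags, Dtx1 was detected in 5.05% and 2.63% of cells, well below the share over all tags, whereas Notch2 (14.9% and 9.74%) and Rbpj (31.7% and 28.6%) were near it. Free RNA can give UMIs in cells that do not express a gene, and its part was not tested.

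Cells were also compared by the stage markers Kit, a progenitor receptor, and Il2ra, at 10000 UMIs per cell with a gate of at least 1 UMI. Kit was detected in 1682 cells without and 2157 cells with Il2ra in experiment 1, and in 1291 and 922 cells in experiment 2. Notch1 was higher in cells with Il2ra. Among cells with Kit, it was 1.26 times as high as in cells without Il2ra in experiment 1 (96.5 against 76.6 CPM), higher in 6 of 8 tags, and 1.43 times in experiment 2 (64.9 against 45.5 CPM), higher in 7 of 8 tags. Dtx1 was 1.40 and 1.46 times as high, in 7 of 8 tags of each experiment. Notch2 went the other way, at 0.71 and 0.75 times, and was higher with Il2ra in 0 and 2 of the 8 tags. Among cells without Kit, the ratios were alike for Notch1 (1.40 and 1.48), Dtx1 (1.54 and 1.36) and Notch2 (0.72 and 0.73). Cells in these gates differ in tag makeup, and the counts of tags are the guide to that. Clusters of other cell types were kept in the gates, also within a tag, and their part in these ratios was not tested.

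Hes1 was 1.25 times as high with Il2ra among cells with Kit in experiment 1 (8 of 8 tags) and 1.12 times in experiment 2 (7 of 8 tags). The latter did not keep its direction with a gate of at least 2 UMIs, where it was 0.77 times. Among cells without Kit, Hes1 was 1.28 and 1.53 times as high with Il2ra, higher in 7 and 8 of 8 tags. For Kit, the sizes depended on the gene and on Il2ra. Among cells with Il2ra, Notch1 with Kit was 0.97 and 0.99 times the level without Kit, and Nrarp was 1.03 and 1.15 times. Hes1 was 1.19 and 1.12 times, higher in 5 of 8 tags of each experiment. Among cells without Il2ra, Hes1 with Kit was 1.22 times the level without Kit in experiment 1 (5 of 8 tags) and 1.53 times in experiment 2 (8 of 8 tags). Rbpj with Il2ra was 1.11 times as high among cells with Kit in experiment 1 (6 of 8 tags) and 0.999 times in experiment 2 (4 of 8 tags), and the former was 0.917 times at 5000 UMIs per cell.

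Within cells, Nrarp and Dtx1 were detected together more than Nrarp and Hes1. At 10000 UMIs per cell, Nrarp was at 37.2 CPM in cells with a Dtx1 UMI and at 24.3 CPM in cells without in experiment 1, a ratio of 1.53 (1.41 to 1.67). In experiment 2 it was at 29.5 against 16.7 CPM, a ratio of 1.76 (1.57 to 1.97), and it was higher in 8 of 8 tags of both experiments. Without clusters of other types, an alternative added after seeing the data, these ratios were 1.46 and 1.54, again in 8 of 8 tags. Notch1 was higher in cells with Dtx1, at 1.33 and 1.42 times (8 of 8 tags in both). Hes1 in cells with an Nrarp UMI was 0.91 and 0.96 times its level in cells without, and higher in 4 and 5 of 8 tags. In cells with Dtx1, Hes1 was 1.01 and 1.13 times as high, and higher in 7 and 8 of 8 tags. Without other types these ratios were 0.960 and 0.998, with Hes1 higher in 6 and 8 of 8 tags. Rbpj was lower in cells with Dtx1, at 0.89 times (higher in 1 of 8 tags) and 0.81 times (0 of 8 tags), and the first ratio was 0.997 at 5000 UMIs per cell.

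The genes with the most similar profile over tags were named by the lower of the 2 Pearson r values of log2 CPM, over 8 tags in each experiment and 4961 genes. The tags share a library and differ in depth and cell makeup, and r is given as a description with no p. For Hes1 they were Dnajc9 (r = 0.982 and 0.984), Tsg101 (0.985 and 0.981) and Klhl6 (0.997 and 0.973), and 2.34% of the genes had an r over 0.9 in both experiments. For Nrarp they were the Ets-family repressor Etv6 (0.98 and 0.99), the protein kinase C gene Prkcd (0.96 and 0.97) and Gm2a (0.99 and 0.95). For Dtx1 they were the beta-globin gene Hbb-bt (0.93 and 0.93), Ddrgk1 (0.93 and 0.96) and Abhd16a (0.99 and 0.92). For Notch1 they were Pnrc1, Capns1 and Ccm2 (lower r of 0.94, 0.94 and 0.92), and for Notch2 Mboat7, Glud1 and Tpst2 (0.93 each). For Rbpj they were the myosin gene Myh9, Commd3 and Purb (0.95, 0.95 and 0.94). The rule left the members themselves out.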

How the data were processed

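Droplet libraries were made with 10x Chromium v3, per the labels' protocols. The mRNA matrices are raw UMI counts and the hashtag tables raw counts, as deposited by the authors; Cell Ranger 3.0.0 and mm10/GRCm38 stand in the submitters' processing notes. The rule that chose the deposited barcodes and the annotation are not given in the sources used here. Barcodes below 500 genes or with 10% or more of their UMIs from mitochondrial genes were removed, and a tag was called at 50 counts or more and at least 3 times the second, so cells with more than 1 tag were left out as doublets. No other doublet caller was run. UMIs were summed per tag. Cells were clustered per experiment with scanpy 1.11.5 (2000 variable genes without the members, 30 components, 15 neighbours, Leiden resolution 0.5). Alternatives used Seurat 5.3.0 (HTODemux), edgeR 4.0.16 (TMM) and DESeq2 1.42.0 (size factors). Python 3.11.15 and R 4.3.3 were used. The script was tested on simulated data.

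The members, pathway list and tests were chosen with earlier results of these data known. Named were all members, each pathway gene called in both experiments, the gene of highest mean in each role, and 3 genes of similar profile per member, each with a mean of at least 20 CPM. Those of Notch3 are not reported here. Lfng, Mfng, Myc and the ligands were named after their values were seen. Cluster names needed at least 3 markers of a class among the 50 leading genes. Ratio intervals are exact conditional intervals.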

Additional observations from a re-analysis of the deposited data

Results flagged for a closer look

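Notch1 in tag 7 of experiment 1 was at 126.0 CPM, far from the other 7 tags, of which the next was at 93.8 CPM. The cut-off for such a gap flags about 1 in 20 groups by chance, and 14 groups were looked at. The share of tag 7 in the 643 cells of cluster 8, which had the highest Notch1 of the clusters of experiment 1 (150.8 CPM), was 65.3%. Cells of cluster 8 were shallow, with a median of 12498 UMIs, against 24753 over all cells with 1 tag of experiment 1. Notch1 was higher in shallower cells, and the part of depth in this value was not tested.

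Barcodes without a tag call, which the comparisons left out, carried members above the level in any tag. In experiment 1, 39 such barcodes had Notch3 at 59.7 CPM (43.2 to 80.5) and Rbpj at 112.5 CPM (89.4 to 139.9). In experiment 2, 638 such barcodes had Notch3 at 29.7 CPM (26.8 to 32.8), Rbpj at 71.8 CPM (67.3 to 76.6) and Notch2 at 14.8 CPM (12.8 to 17.1). Notch1, Hes1, Nrarp and Dtx1 were below their highest tag in these barcodes, with Hes1 at 75.0 CPM in experiment 1 and 37.4 CPM in experiment 2. Stromal markers summed to 12830 and 6282 CPM in the same barcodes.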

How the results depend on the processing

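The number of members called stayed at 2 to 3 in each experiment when any 1 tag was left out (3 with all tags). Of 288 recomputed ratios, the 10 that fell below 2 were all of Dtx1, down to 1.69 without tag 7 of experiment 1 and 1.88 without tag 2 of experiment 2. With all tags the lowest Dtx1 ratios were 1.81 at 10000 UMIs per cell and 1.97 with the stricter cell filter. Hes1 and Nrarp ran from 2.16 to 4.14 over all settings tried. Notch1 in experiment 1 (2.01) and Notch2 in experiment 2 (2.33) crossed 2 only as a mean over cells. The count of pathway genes called was 11 in experiment 1 and 9 in experiment 2 at a mean of at least 1 CPM. In experiment 2 it was 5 when the leading tag needed 5 times the next, 5 with HTODemux, 5 without other cell types and 7 as a mean over cells. Leaving out 1 tag gave 4 to 5 in experiment 1 and 3 in experiment 2. The share of all genes past a ratio of 2 at the same settings is not given here. The changes in these counts of members and pathway genes are therefore not read as a trait of the members or of the pathway. Members 2-fold apart between experiments numbered 1 with every deposited barcode (Notch3, 2.40 times) and 0 without any 1 tag. Turned in direction over all tags pooled were Rbpj with Il2ra among cells with Kit at 5000 UMIs in experiment 1 (0.917), Hes1 in the same gates at 2 UMIs in experiment 2 (0.768), and Hes1 with Dtx1 in experiment 2 without other cell types (0.998, although higher in 8 of 8 tags). The cause was not tested. Of the 3 genes most alike to each member, 4 of 21 were also named by Spearman rho.

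Conditions could not be paired, because no tag is tied to a condition, and no test was run. The gates, and cells with and without a UMI of another member, were also compared within each tag. Depth limits Notch3 most, with 39 UMIs in its lowest tag.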
